A study of Mus musculus with 8 samples.

Results

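Integrins, laminins and the proteins that tie them together form the contact between a cardiac cell and its basement membrane, and 37 of their genes were measured in the left ventricles (LVs) of 8 mice infused with angiotensin II (angII). The genes were chosen by name, as integrin alpha and beta subunits, laminin alpha, beta and gamma chains, the nidogens *Nid1* and *Nid2*, perlecan (*Hspg2*), agrin (*Agrn*) and dystroglycan (*Dag1*). Of 42 genes with such a name, 37 passed a filter on low counts, as did 13542 of the 46040 genes in the table. The filter asked for a CPM (counts per library total, scaled) of 1 or more in 2 or more libraries. These were 15 integrin alpha, 8 integrin beta, 4 laminin alpha, 3 laminin beta and 2 laminin gamma genes and the 5 others. *Itgae*, *Lamc3*, *Itgad*, *Itga2* and *Lama1* stayed below this level, with at most 15, 16, 6, 4 and 1 counts in any library, and were not tested.

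All mice were males of 5 to 7 months on a C57BL/6 background and received angII (0.1 mg/kg/h) by minipump for 14 days, which raises the load on the heart. One group carried on both copies of *Flt1* an allele without the tyrosine kinase domain of VEGFR-1, in all cells (VEGFR-1 TK-/-), and the other group were littermate controls, with 4 libraries each from mice that survived the infusion. The labels contradict each other, as the genotype tag and library name of every library give one genotype and its title gives the other. Libraries were therefore grouped by the tags and are called control-tagged and TK-/- tagged, each difference is TK-/- tagged minus control-tagged, and all signs reverse if the titles are right. No LV without angII was part of the table.

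Libraries held 11449137 to 16239670 counts. The summed level of 9 cardiomyocyte markers was between 58888 and 98803 normalized CPM in every library, and markers of endothelium, fibroblasts, mural cells and leukocytes were also present, as in whole LV tissue. Library names that speak of cardiomyocytes and a label on ribosomal RNA depletion differ from the methods, which describe LV tissue and poly-A selection. *Flt1*, the targeted gene, had mean normalized CPM of 69.2 ± 11.3 with the control tag and 157 ± 13.2 with the TK-/- tag (SD, n = 4 per group). Since reads were summed over all exons, this neither shows the removed domain nor settles the labels.

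Laminins are secreted trimers of an alpha, a beta and a gamma chain that polymerise into a sheet on the cell surface. Nidogens, perlecan and agrin link this sheet to type IV collagen or to the cell. Integrins, pairs of an alpha and a beta subunit, and dystroglycan bind laminin from the cell side and pass force to the cytoskeleton, in cardiomyocytes mainly at the costameres. In the heart every cardiomyocyte, capillary and smooth muscle cell is wrapped in such a membrane, while leukocytes and platelets carry integrins of their own kind. In bulk tissue, fewer cells of a type and less RNA per cell cannot be told apart.

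The DNA just ahead of the transcription start is shown for 4 genes, 3 that were lower in the TK-/- tagged libraries (*Hspg2*, *Nid1*, *Lamb1*) and the laminin chain with the largest positive difference (*Lama5*). The sequences come from the RefSeq promoter set of GRCm38.p6, which matched 26 of the 37 genes, and each runs 5′ to 3′ on the strand of the gene from 250 to 61 bases before the RefSeq start, ahead of every annotated exon. Capitals mark the GC box (GGGCGG, bound by factors of the Sp family) and the CCAAT box (CCAAT), each searched on both strands.
*Hspg2*, chr4:137468553-137468742, plus strand: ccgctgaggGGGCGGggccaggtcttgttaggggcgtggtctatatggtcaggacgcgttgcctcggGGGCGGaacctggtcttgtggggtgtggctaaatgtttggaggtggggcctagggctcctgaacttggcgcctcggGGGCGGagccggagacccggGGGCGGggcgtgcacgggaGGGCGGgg
*Nid1*, chr13:13437352-13437541, plus strand: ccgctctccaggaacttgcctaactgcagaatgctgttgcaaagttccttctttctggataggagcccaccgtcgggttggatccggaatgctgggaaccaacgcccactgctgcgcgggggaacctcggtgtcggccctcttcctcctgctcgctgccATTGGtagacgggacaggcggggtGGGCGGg
*Lamb1*, chr12:31265043-31265232, plus strand: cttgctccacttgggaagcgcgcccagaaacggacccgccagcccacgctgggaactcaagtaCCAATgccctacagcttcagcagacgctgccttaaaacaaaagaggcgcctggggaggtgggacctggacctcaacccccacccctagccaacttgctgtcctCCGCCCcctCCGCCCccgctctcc
*Lama5*, chr2:180225920-180226109, minus strand: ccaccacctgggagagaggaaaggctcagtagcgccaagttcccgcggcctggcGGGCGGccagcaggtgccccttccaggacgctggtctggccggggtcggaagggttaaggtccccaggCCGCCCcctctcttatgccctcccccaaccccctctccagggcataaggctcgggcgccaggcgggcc

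These windows were rich in G and C, from 62.6% in *Nid1* to 71.1% in *Lama5*. The window of *Hspg2* held 5 GC boxes, those of *Lamb1* and *Lama5* 2 each and that of *Nid1* 1. A CCAAT box stood once in the windows of *Nid1* and *Lamb1*. No TATA box (TATAAA) was found in any of the 4. Over 32851 windows of the same 190 bases in the promoter set, 22.8% held a GC box, 26.7% a CCAAT box and 8.73% a TATA box. Of the 31 such windows of the matched integrin, laminin and linker genes, 13 held a GC box, 5 a CCAAT box and 0 a TATA box. GC boxes thus occurred both in genes that were lower and in the one that was higher, and a match of letters is no proof of a binding site.

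Which chains the LV used was read from the level per length, the normalized count per kilobase of exon, scaled to the library total (RPKM), as a mean over all 8 libraries. Among the beta subunits, *Itgb1*, the common partner of the laminin, collagen and fibronectin receptors, was highest at 99.8 ± 10.1 RPKM (SD, n = 8) and took 65.7% of the summed level of its class. *Itgb5*, which pairs with *Itgav* to bind vitronectin, followed at 43.5 ± 5.32 RPKM, and no library of *Itgb5* reached the lowest of *Itgb1*. The other 6 beta subunits were at most at 3.70 RPKM, the level of *Itgb2*, the beta subunit of leukocytes.

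Among the alpha subunits, *Itga7*, the laminin receptor subunit of striated muscle, had 27.5 ± 2.65 RPKM (SD, n = 8) and *Itga5*, the fibronectin receptor subunit, 24.5 ± 3.09 RPKM. Their ranges over libraries overlapped, and the ratio of *Itga7* to *Itga5* lay between 0.840 and 1.47. This closeness depended on the length used. The class shares of *Itga7* and *Itga5* were 31.5% and 28.0% per exon length. They were 41.3% and 20.4% per longest transcript, and 33.0% and 20.5% per coding length. *Itga9*, which binds tenascin C among other ligands, stood at 13.1 ± 2.49 RPKM and *Itga6*, a laminin receptor subunit of endothelium, at 10.7 ± 1.81 RPKM, again with overlapping ranges. From *Itga3* at 3.02 RPKM downward, the other 11 alpha subunits were low. *Itgav*, the partner of *Itgb5*, was at 1.45 RPKM, far below *Itgb5* itself.

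In the laminins, *Lama5* had 20.3 ± 3.12 RPKM (SD, n = 8) and 56.9% of the alpha chains. *Lama4*, the other main chain of vessel walls, had 8.02 ± 1.11 RPKM, and *Lama2*, the chain of the muscle basement membrane that is lost in one form of congenital muscular dystrophy, had 6.91 ± 0.605 RPKM, the latter pair with overlapping ranges. The share of *Lama5* depended on the length used and was 40.7% per coding length, with the order of these 3 chains unchanged. *Lamb2* at 89.4 RPKM was well above *Lamb1* at 13.4 RPKM, and *Lamc1*, the gamma 1 chain, was at 25.9 RPKM. *Lama3* and *Lamb3*, chains known from epithelia, were measured at 0.314 and 1.88 RPKM.

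**Figure D1:**
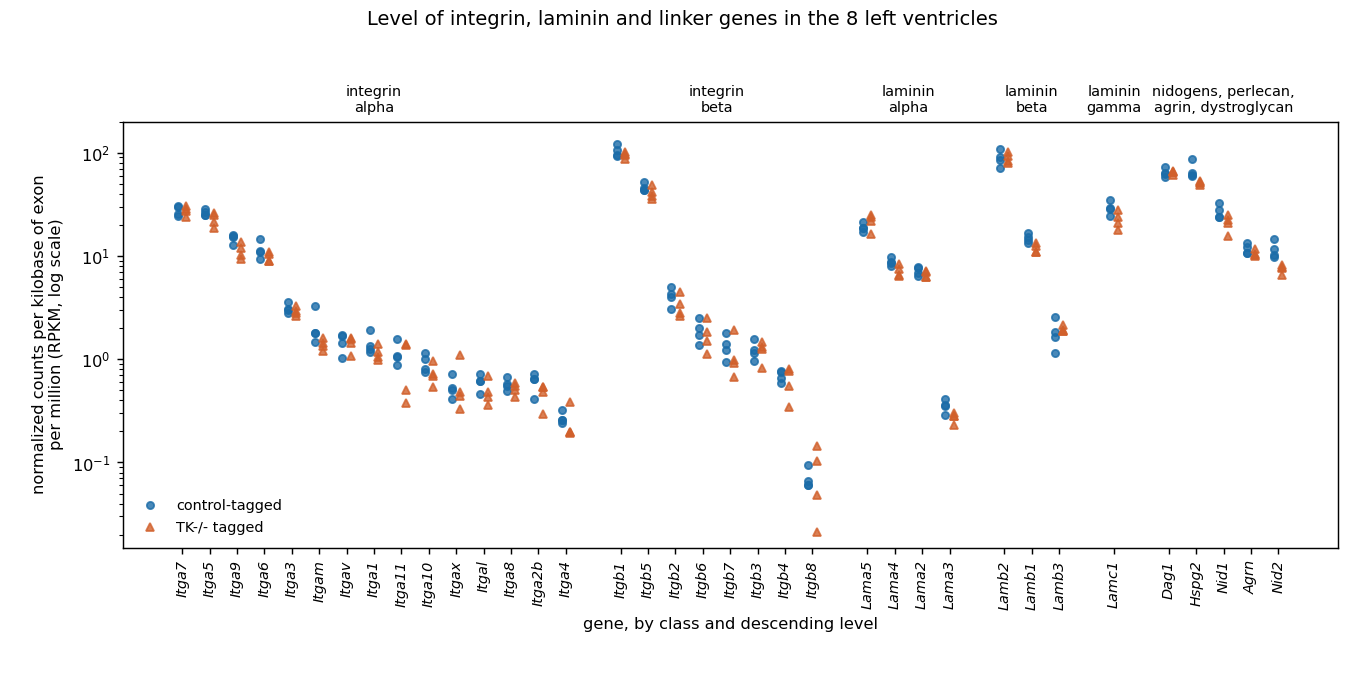
Level of 36 of the 37 genes per length of exon (RPKM, log axis) in each library, ordered by level within each class, with circles for the 4 control-tagged and triangles for the 4 TK-/- tagged libraries. *Itgb1*, *Lamb2*, *Dag1* and *Hspg2* were the most abundant, with mean levels of 99.8, 89.4, 64.4 and 59.6 RPKM, and *Itgb8* was the lowest at 0.0747 RPKM.

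Between the groups, the nidogens, perlecan and the laminin beta 1 and gamma 1 chains were lower in the TK-/- tagged LVs. Dystroglycan, *Itga7* and *Lamb2* were near a difference of 0. The abundant receptor subunits *Itgb1*, *Itgb5* and *Itga5* had log2 fold changes of −0.11, −0.18 and −0.20. Of the 37 genes, 30 had a negative and 7 a positive log2 fold change, with a median of −0.18, against 50.3% negative genes and a median of 0.00 over all 13542 genes. Of these, 8 were lower with an unadjusted p under 0.05 and none was higher, where 8.96% of all genes were at that level, 5.64% lower and 3.32% higher. The 8 were *Nid2*, *Itga9*, *Lamb1*, *Hspg2*, *Lama4*, *Lamc1*, *Itgam* and *Nid1*. By edgeR's quasi-likelihood test with Benjamini-Hochberg adjustment over all genes, 0 of the 37 genes passed an FDR of 0.1, the lowest being 0.442, and 0.00738% of all genes were called, a call needing this FDR and a log2 fold change past 0.585 in either direction. The likelihood ratio test of edgeR, which the study used, called 1 of the 37, *Nid2*, and 0.391% of all genes. The paper reported fewer regulated genes with this test and these thresholds, and its text does not name *Nid2*. DESeq2 also called *Nid2*.

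The number at an unadjusted p under 0.05 turned on single libraries. It was 4 without control-tagged replicate 2 or without TK-/- tagged replicate 2, 5 without TK-/- tagged replicate 3 and 14 without TK-/- tagged replicate 1. The share of all genes at that level moved as well. In the same order of fits it was 7.73%, 5.25%, 6.21% and 8.62%, against 8.96% with all libraries. *Nid2*, *Hspg2*, *Lamb1* and *Itga9* were at this level in all 17 fits, the one reported and 16 alternatives in test, scaling, filter, block and libraries.

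**Figure D2:**
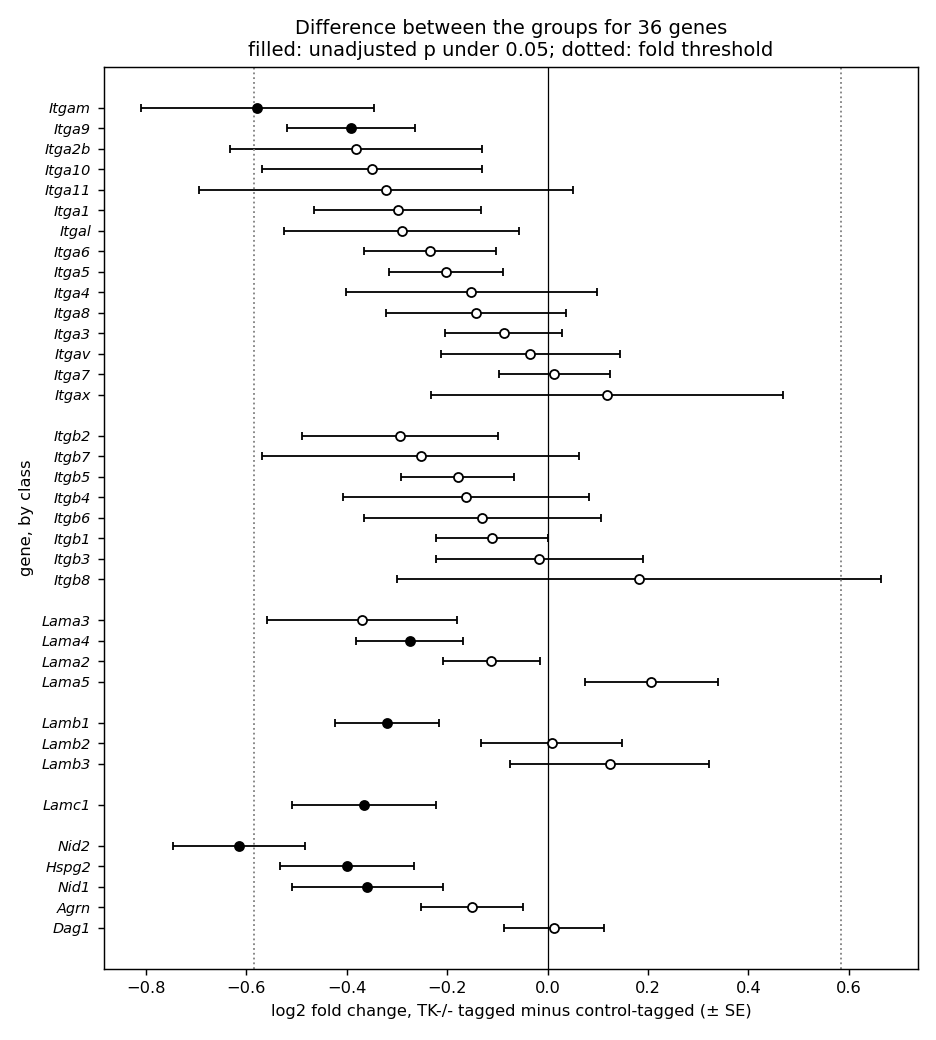
Log2 fold change with its SE for 36 of the 37 genes, TK-/- tagged minus control-tagged, by class, with filled points for an unadjusted p under 0.05 and dotted lines at the fold threshold of 0.585. *Nid2* at −0.61 was the only gene past the threshold, and *Lama5* had the highest value at 0.21.

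*Nid2* (ENSMUSG00000021806, chromosome 14 of GRCm38, 19751265 to 19811787, plus strand) encodes nidogen-2, which bridges laminin and type IV collagen. Replicates 1 to 4 had 50.8, 75.3, 60.3 and 53.2 normalized CPM with the control tag and 40.9, 39.4, 33.5 and 42.8 with the TK-/- tag. Every control-tagged library was above every TK-/- tagged library, a separation found in 4.98% of all genes, 2.53% with this direction and 2.46% with the other. The means were 59.9 ± 11.02 and 39.1 ± 3.98 (SD, n = 4 per group), a level 1.53-fold higher in the control-tagged LVs. At a log2 fold change of −0.61 (SE 0.13), edgeR gave FDRs of 0.442 (quasi-likelihood) and 0.0186 (likelihood ratio). The exact 2-sided permutation test gave p = 0.0286, the smallest that 4 libraries against 4 allow. *Nid2* shares 437 of its 5174 exon bases with *Rtraf* on the opposite strand, and the use of strand in counting is not stated.

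*Nid1* (ENSMUSG00000005397, chromosome 13, 13437551 to 13512269) encodes the first nidogen, with the same bridging role. Its normalized CPM was 165, 225, 165 and 195 in the control-tagged and 156, 146, 109 and 174 in the TK-/- tagged replicates 1 to 4. The groups overlapped through TK-/- tagged replicate 4, which was above control-tagged replicates 1 and 3. The difference on the log2 scale was −0.36 (SE 0.15, FDR = 0.522 by edgeR's quasi-likelihood test). It was thus of the same sign as that of *Nid2*, with a smaller size.

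*Hspg2* (ENSMUSG00000028763, chromosome 4, 137468769 to 137570630) encodes perlecan, a large heparan sulfate proteoglycan of basement membranes that holds growth factors. The control-tagged replicates had 880, 916, 1235 and 848 normalized CPM, and the TK-/- tagged replicates 753, 695, 730 and 764. The groups did not overlap, control-tagged replicate 3 stood above its group and the TK-/- tagged libraries were close to each other, with a coefficient of variation of 4.14% against 18.5%. Its log2 fold change was −0.40 (SE 0.13, FDR = 0.468 by edgeR's quasi-likelihood test), a level 1.318-fold higher in the control-tagged LVs, and −0.26 without control-tagged replicate 3. The exact permutation test gave p = 0.0286. *Hspg2* and *Nid2* were the only 2 of the 37 genes with separate groups. That is 5.41% of them, near the 4.98% of all genes with separate groups, 2.53% in this direction.

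*Agrn* encodes agrin, a proteoglycan that connects laminin with dystroglycan. Its normalized CPM was 99.5, 112, 125 and 98.9 in the control-tagged and 108, 95.7, 97.6 and 92.1 in the TK-/- tagged replicates. The groups overlapped and the log2 fold change was −0.15 (SE 0.10, FDR = 0.689 by edgeR's quasi-likelihood test), and −0.08 without control-tagged replicate 3.

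*Dag1* encodes dystroglycan, the laminin receptor of the dystrophin complex. It had 408, 392, 369.9 and 459.8 normalized CPM in the control-tagged and 416, 427, 410.5 and 391 in the TK-/- tagged replicates, with means of 408 ± 38.2 and 411 ± 15.04 (SD, n = 4 per group). The log2 fold change of 0.01 (SE 0.10) was smaller than its error and changed sign with the scaling by total counts and in 3 fits that left out 1 library. The receptor was therefore near a difference of 0 in the libraries where the linkers *Nid2* and *Hspg2* were lower.

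**Figure D3:**
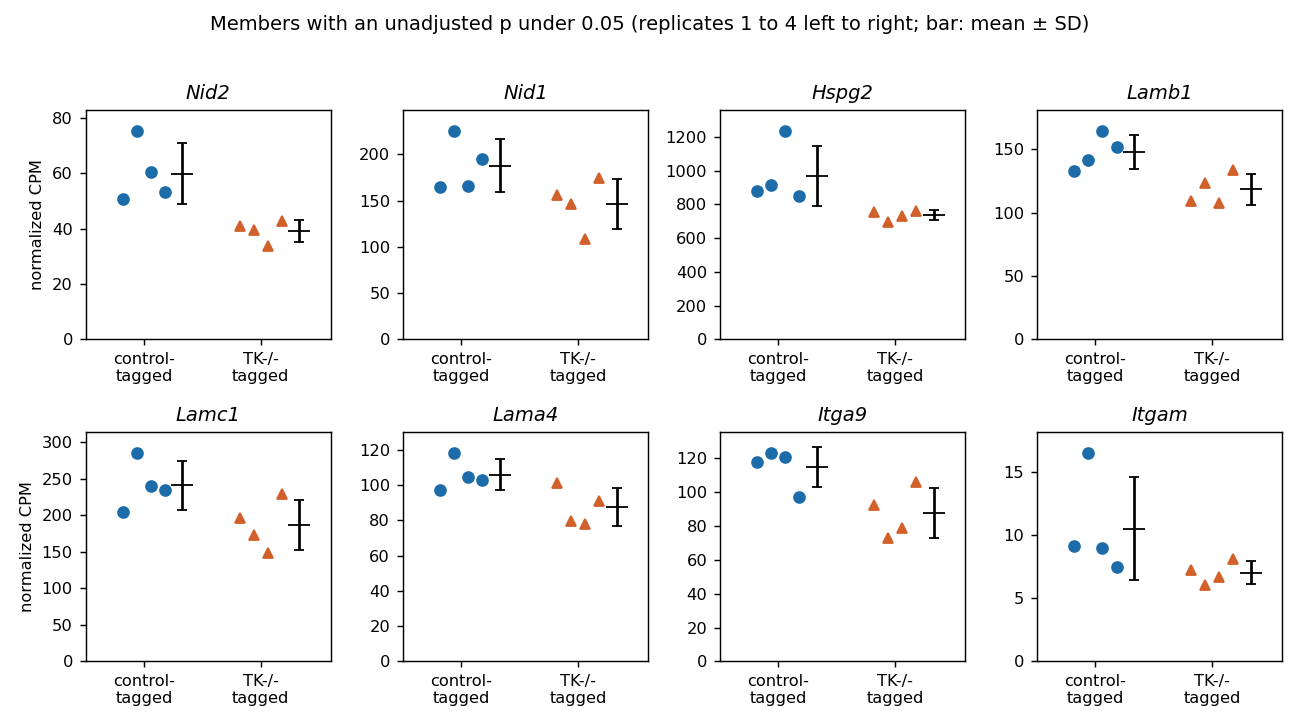
Normalized CPM of the 8 genes with an unadjusted p under 0.05 in each library, with replicates 1 to 4 from left to right in each group and the mean ± SD beside them. All points of *Nid2* and *Hspg2* in the control-tagged group lie above those of the TK-/- tagged group, and the groups of the other 6 genes overlap.

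Among the laminins, *Lamb1*, *Lamc1* and *Lama4* were lower at an unadjusted p under 0.05, and the abundant *Lamb2* and *Lama5* were not lower. *Lamb1* (ENSMUSG00000002900, chromosome 12, 31265234 to 31329644), the beta 1 chain, had 133, 142, 164 and 151 normalized CPM in the control-tagged and 109, 123, 108 and 133.4 in the TK-/- tagged replicates. TK-/- tagged replicate 4 was just above control-tagged replicate 1, at 133.1, and all other TK-/- tagged libraries were below the control-tagged ones. The log2 fold change was −0.32 (SE 0.10, FDR = 0.464 by edgeR's quasi-likelihood test).

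*Lamb2*, the beta 2 chain of vessels and muscle, had 555, 435, 663 and 516 normalized CPM in the control-tagged and 569.8, 483, 622 and 506 in the TK-/- tagged replicates. The TK-/- tagged values lay within the control-tagged range, and the log2 fold change was 0.01 (SE 0.14, FDR = 0.991 by edgeR's quasi-likelihood test). It changed sign in 4 fits that left out 1 library. The level of *Lamb1* per length was 0.170 ± 0.0247 of that of *Lamb2* with the control tag and 0.135 ± 0.0279 with the TK-/- tag (SD, n = 4 per group), with overlapping groups.

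*Lamc1* (ENSMUSG00000026478, chromosome 1, 153218922 to 153332786), the gamma chain of most laminins, had 204, 285, 239.6 and 235 normalized CPM in the control-tagged replicates. The TK-/- tagged replicates had 196, 174, 149 and 229.9. Only TK-/- tagged replicate 4 reached into the control-tagged range. The difference on the log2 scale was −0.37 (SE 0.14, FDR = 0.508 by edgeR's quasi-likelihood test).

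*Lama4* (ENSMUSG00000019846, chromosome 10, 38965515 to 39110188), an alpha chain of endothelial basement membranes, had 97.3, 118, 105 and 103 normalized CPM in the control-tagged replicates. The TK-/- tagged replicates had 101, 79.8, 78.1 and 91.0, of which only replicate 1 overlapped with the other group. Its log2 fold change was −0.27 (SE 0.11, FDR = 0.506 by edgeR's quasi-likelihood test).

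*Lama5*, the alpha chain of mature vessels, went the other way. Its normalized CPM was 212, 192, 241 and 213 in the control-tagged and 275, 246, 282 and 188 in the TK-/- tagged replicates. The first 3 TK-/- tagged libraries were above all control-tagged ones and the fourth was below them. The log2 fold change was 0.21 (SE 0.13, FDR = 0.674 by edgeR's quasi-likelihood test), the highest of the 37 genes. It was 0.32, with an unadjusted p under 0.05, without TK-/- tagged replicate 4 and 0.14 without TK-/- tagged replicate 3. The ratio of *Lama4* to *Lama5* per length was 0.470 ± 0.0755 with the control tag and 0.343 ± 0.0837 with the TK-/- tag (SD, n = 4 per group), with overlapping groups.

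*Lama2*, the muscle chain, had a log2 fold change of −0.11 (SE 0.10) and a mean of 117 ± 10.9 normalized CPM in the control-tagged and 109 ± 7.64 (SD, n = 4 per group) in the TK-/- tagged LVs. Of the epithelial chains, *Lama3* had a log2 fold change of −0.37 (SE 0.19) and *Lamb3* of 0.12 (SE 0.20). The scarce *Lama3* had 28 to 61 counts per library.

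Of the 23 integrin genes, 20 had a negative log2 fold change, and *Itga9* and *Itgam* were lower at an unadjusted p under 0.05. These 2 are 8.70% of the integrins, where 5.64% of all genes were lower at that level and 8.96% differed in either direction. The beta subunits stayed close together. *Itgb1* had 382, 492, 386 and 432 normalized CPM in the control-tagged and 392, 399, 357 and 419 in the TK-/- tagged replicates. Control-tagged replicate 2 was the highest of all and the groups overlapped. The difference on the log2 scale was −0.11 (SE 0.11, FDR = 0.799 by edgeR's quasi-likelihood test), and −0.03 without control-tagged replicate 2 and −0.07 without TK-/- tagged replicate 3. That of *Itgb5* was −0.18 (SE 0.11).

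*Itga7*, the muscle laminin receptor, had 239, 205, 244.5 and 196 normalized CPM in the control-tagged and 229, 222, 248 and 195 in the TK-/- tagged replicates. The groups covered the same range, with a log2 fold change of 0.01 (SE 0.11) that changed sign in 3 fits without 1 library. *Itga5*, the fibronectin receptor subunit, had a log2 fold change of −0.20 (SE 0.11) and *Itga6*, which pairs with *Itgb1* or *Itgb4*, of −0.23 (SE 0.13), neither with an unadjusted p under 0.05.

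*Itga9* (ENSMUSG00000039115, chromosome 9, 118606690 to 118901003) was the abundant integrin with the largest difference. Its normalized CPM was 118, 123, 121 and 97.4 in the control-tagged and 92.5, 72.7, 78.8 and 106 in the TK-/- tagged replicates. Control-tagged replicate 4 was below TK-/- tagged replicate 4, and the groups were otherwise separate. Its log2 fold change was −0.39 (SE 0.13, FDR = 0.464 by edgeR's quasi-likelihood test), a level 1.31-fold higher in the control-tagged LVs.

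The receptors for collagen, *Itga1*, *Itga10* and *Itga11*, had log2 fold changes of −0.30 (SE 0.17), −0.35 (SE 0.22) and −0.32 (SE 0.37). *Itga10* shares 1739 of its 5186 exon bases with *Gm42957* on the same strand, so its count is uncertain. For *Itga1* the overlap, with *Gm49395* on the same strand, is 685 of 18599 exon bases. *Itga11*, a subunit of fibroblasts, varied most between replicates of this group of receptors, from 1.95 to 7.17 normalized CPM in the TK-/- tagged LVs. *Itga3*, *Itga8* and *Itgav* had log2 fold changes of −0.09, −0.14 and −0.03. *Itgb3*, *Itgb4* and *Itgb6*, beta subunits that pair with *Itgav*, *Itga6* and *Itgav*, had −0.02, −0.16 and −0.13. *Itgb8* had 3 to 20 counts per library and a log2 fold change of 0.18 (SE 0.48), so that its direction was not resolved at this depth.

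Leukocyte integrins were scarce. *Itgam*, the alpha chain of macrophages and neutrophils, had 9.12, 16.5, 8.93 and 7.43 normalized CPM in the control-tagged and 7.22, 6.03, 6.71 and 8.12 in the TK-/- tagged replicates. Control-tagged replicate 2 was far above the other 7 libraries. The log2 fold change was −0.58 (SE 0.23, FDR = 0.521 by edgeR's quasi-likelihood test) and −0.27 without that replicate. *Itgam* shares 3450 of its 5024 exon bases with *Gm49368* on the same strand, so its count is uncertain.

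Of the other leukocyte subunits, *Itgb2*, *Itgal*, *Itgb7* and *Itga4* had log2 fold changes of −0.29, −0.29, −0.25 and −0.15, and *Itgax*, a chain of dendritic cells and some macrophages, had 0.12. TK-/- tagged replicate 1 held the highest value of *Itgax*, 5.28 normalized CPM, where the other 3 libraries of its group had 1.596 to 2.31. *Itga2b*, the platelet chain, had a log2 fold change of −0.38 (SE 0.25) at 1.62 to 3.91 normalized CPM. None of these 6 genes had an unadjusted p under 0.05 with all libraries.

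Beside these genes, lists of their neighbours in the pathway were counted. Of 26 other basement membrane genes, 24 had a negative log2 fold change (median −0.36), and 14 were lower and 0 higher at an unadjusted p under 0.05. They included peroxidasin (*Pxdn*), which crosslinks type IV collagen, at −0.49 (SE 0.12), fibulin-2 (*Fbln2*) at −0.68 (SE 0.18) and the 2 main chains of type IV collagen, *Col4a2* at −0.51 (SE 0.16) and *Col4a1* at −0.54 (SE 0.18). The quasi-likelihood test gave none of the 26 an FDR under 0.1, and the likelihood ratio test of edgeR gave 2. Over all 13542 genes, the likelihood ratio test gave 75.

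Of 22 integrin ligands, in the matrix, secreted or on other cells, 19 had a negative value (median −0.41), with 6 lower at an unadjusted p under 0.05. Fibrillin-1 (*Fbn1*) was at −0.86 (SE 0.22), *Ctgf* at −0.95 (SE 0.25), von Willebrand factor (*Vwf*) at −0.62 (SE 0.17) and *Emilin1* at −0.44 (SE 0.14). By the quasi-likelihood test 0 of the 22 reached an FDR of 0.1, and by the likelihood ratio test 3 did, where 75 of all 13542 genes did.

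The remaining lists of neighbours had smaller median differences. Of 34 integrin adaptors and signalling genes, 24 were negative (median −0.09) and 5 were lower at an unadjusted p under 0.05, among them parvin alpha (*Parva*) at −0.26 (SE 0.08), focal adhesion kinase (*Ptk2*) at −0.30 (SE 0.10), talin-1 (*Tln1*) at −0.22 (SE 0.09) and *Tns3* at −0.25 (SE 0.11). Of 14 genes of the dystrophin-glycoprotein complex and 17 of dystroglycan glycosylation, 8 and 9 were negative, with medians of −0.01 and −0.04, and 0 had an unadjusted p under 0.05 in either list. Matrix and linker genes thus had lower medians than the genes of the dystroglycan side, a difference that was not tested.

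**Figure D4:**
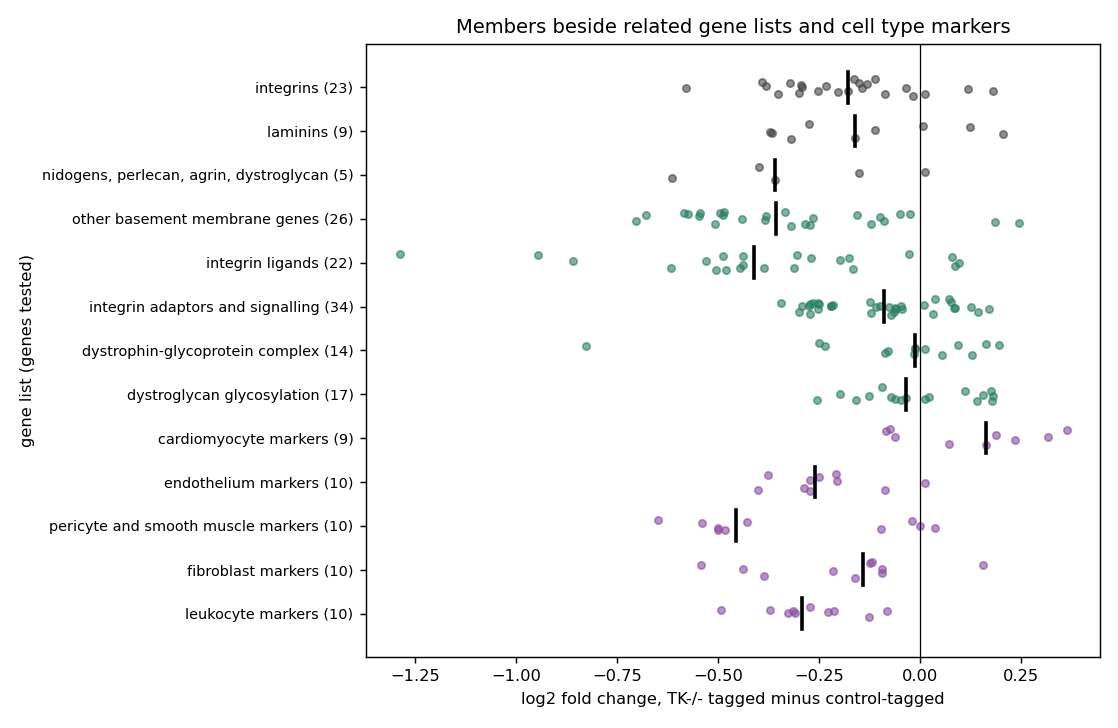
Log2 fold change of each gene (points) and the median of each list (bars), TK-/- tagged minus control-tagged, for the 37 genes in 3 groups, 5 related lists and 5 lists of cell type markers, with the number of genes tested in brackets. The medians of the other basement membrane genes and the integrin ligands lie at −0.36 and −0.41, that of the cardiomyocyte markers at 0.16.

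Levels of cell type markers moved in the same libraries. The summed level of 10 endothelial markers was 1965 to 2446 normalized CPM in the control-tagged and 1798 to 1952 in the TK-/- tagged LVs, without overlap. The gap was narrow, between replicate 1 of each group at 1965 and 1952, and 0 of the 10 markers had separate groups by itself. All 10 were detected, 9 of them with a negative log2 fold change (median −0.26). For 10 markers of pericytes and smooth muscle the sums were 1479.8 to 2084 and 1055 to 1604 normalized CPM, with 8 negative (median −0.46). This list was split. *Kcnj8*, *Pdgfrb*, *Notch3*, *Cspg4* and *Rgs5* had log2 fold changes of −0.65 to −0.48. *Acta2* was at −0.43 and *Abcc9* at −0.10, and *Myh11*, *Tagln* and *Cnn1* were at −0.02, 0.00 and 0.04. For 10 leukocyte markers the sums were 426 to 554 and 295 to 451, with 10 negative, and for 10 fibroblast markers 2331 to 2733 and 1589 to 2733, with 9 negative. The 9 cardiomyocyte markers summed to 58888 to 91469.5 and 74939.8 to 98803 normalized CPM, with 6 positive (median 0.16).

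No marker of these 5 lists was at 0. The part of these levels in the differences of the integrin and laminin genes was not tested. In stained heart sections after angII, the paper found capillary and arterial density and area unaltered in VEGFR-1 TK-/- mice. Those are measures of vessels in sections and not of RNA. Sums of 8 platelet, 8 Schwann cell, 8 mesothelial, 6 lymphatic, 7 atrial and 6 red blood cell markers overlapped between the groups.

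Whether a gene followed the level of a cell type over the 8 libraries was tested for 8 pairs, with Benjamini-Hochberg adjustment over the 8. *Itgb2* followed the mean log2 level of the leukocyte markers, with Pearson's r = 0.879 (exact permutation p = 0.00193, adjusted 0.0155) and Spearman's rho = 0.905 (exact permutation p = 0.00456, adjusted 0.0183). Without the 2 libraries farthest from the median, control-tagged replicate 2 and TK-/- tagged replicate 3, r was 0.967.

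*Lama4* followed the endothelial markers, with r = 0.877 (exact permutation p = 0.00491, adjusted 0.0196) and rho = 0.905 (exact permutation p = 0.00456, adjusted 0.0183). Without control-tagged replicates 2 and 3, r was 0.818. The endothelial level itself separated the groups, by a narrow gap between replicate 1 of each group (log2 levels of 7.317 and 7.303). With the group means removed, r was 0.707 for *Lama4* and 0.842 for *Itgb2*. These 2 pairs were the ones that passed an adjusted p of 0.05 with both measures.

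The other 6 pairs did not pass with TMM scaling, by exact permutation tests over the 8 libraries. Pearson's r was 0.743 for *Itga11* and fibroblast markers (adjusted p = 0.0979). For that pair it was −0.10 without TK-/- tagged replicates 2 and 3, on which the relation with this scaling rests. It was 0.601 for *Itga6* and endothelial markers (adjusted p = 0.213), 0.569 for *Itga7* and cardiomyocyte markers (adjusted p = 0.214), 0.351 for *Itga2b* and platelet markers (adjusted p = 0.507), 0.319 for *Itga8* and mural cell markers (adjusted p = 0.507) and −0.05 for *Lama2* and cardiomyocyte markers (adjusted p = 0.924). Spearman's rho of these 6 pairs lay between −0.07 and 0.667, with adjusted p-values of 0.153 to 0.882 (exact permutation tests). Without the 2 farthest libraries, r was 0.772, 0.456, 0.135, 0.895 and 0.453 for the pairs of *Itga6*, *Itga7*, *Itga2b*, *Itga8* and *Lama2*.

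**Figure D5:**
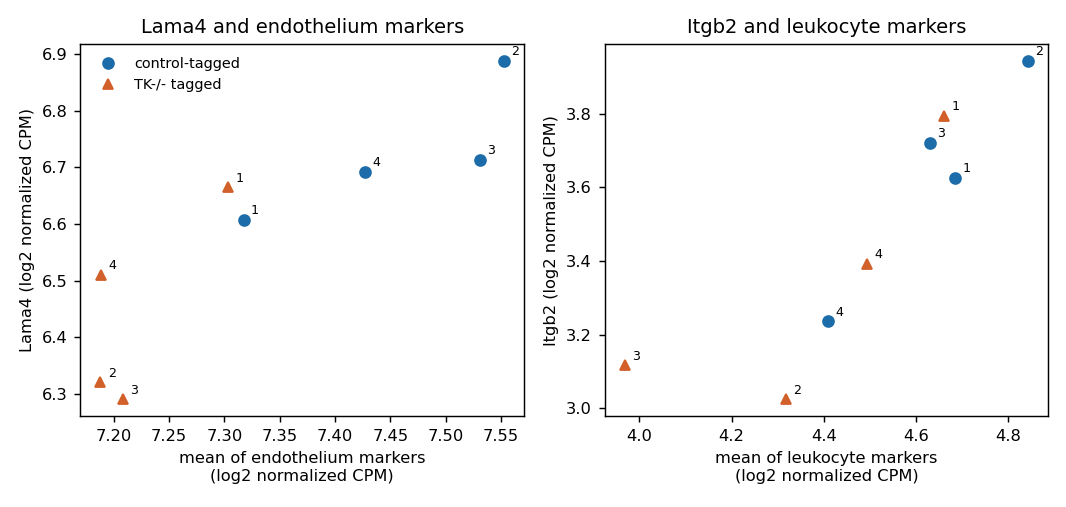
Log2 normalized CPM of *Lama4* against the mean of 10 endothelial markers (left) and of *Itgb2* against the mean of 10 leukocyte markers (right), with 1 point per library, its replicate number beside it, circles for control-tagged and triangles for TK-/- tagged libraries. Both genes were higher where the marker level was higher (r = 0.877 and 0.879 over 8 libraries). The 4 control-tagged libraries have the higher endothelial levels, with replicate 1 of each group close together.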

How the data were processed

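The authors trimmed reads (Trim Galore 0.4.4, Phred 30), aligned them to GRCm38 with STAR 2.5.4b and counted them on GENCODE M16 genes with featureCounts. The deposited values are whole-number counts per gene, not normalized, and all 8 columns were used. The strand and multimapping settings of featureCounts are not stated, so reads of antisense or overlapping genes can add to a count. Lengths and coordinates came from GENCODE M21 (GRCm38).

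Genes reaching a CPM of 1 in 2 or more libraries were kept, scaled by TMM and tested with edgeR 4.0.16 (glmQLFit, glmQLFTest, no covariates, R 4.3.3), with Benjamini-Hochberg adjustment over 13542 genes. SE is the log2 fold change divided by the root of F. Log2 values used a prior count of 2. The code was tested on simulated counts. A CPM of 1 equals 11 to 16 counts. Replicates were more different than sampling noise allows (chi-square over its degrees of freedom 7.17 to 54.3).

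Genes given library by library were those with separate groups, an unadjusted p under 0.05 or the highest level of their class, and the 5 linker genes. Up to 4 genes of each related list were named by lowest p. Single libraries remarked on were picked after their values were seen. The genes and lists were chosen with earlier results of these data known. The values of 1 of the 37 genes are not reported here, and it is counted in the totals.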

Additional observations from a re-analysis of the deposited data

How the results depend on the processing

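Directions follow the genotype tags. With the sample titles, the median log2 fold change of the 37 genes was 0.18 instead of −0.18, 7 genes were lower instead of 30, and 0 were lower at an unadjusted p under 0.05 instead of 8. DESeq2, the likelihood ratio test and a fit that kept genes of low counts each called 1 of the 37 genes, *Nid2*, and 32, 53 and 23 of all genes, where the quasi-likelihood test called 0 and 1, the latter *Flt1*. Its log2 fold change stayed between 1.101 and 1.295 and it was called in all 16 alternatives. Leaving out 1 library in turn gave 4 to 14 genes at an unadjusted p under 0.05, all lower except *Lama5* without TK-/- tagged replicate 4 (9 genes, 8 of them lower), 0 called genes among the 37, 1 to 3 called genes in all, 28 to 32 negative genes and medians from −0.28 to −0.14. In those fits, 5.25% to 10.1% of all genes were at an unadjusted p under 0.05. With the replicate number as a block, 8 genes were at an unadjusted p under 0.05, 0 were called and the median was −0.20. Same-numbered libraries deviated together in 1 of 4 pairs (correlations of −0.06 to 0.343), the only one where a library correlated best with its own number, so the numbers were not taken as pairs and the block is given only as an alternative. Without control-tagged replicate 2 or 4 or TK-/- tagged replicate 3, *Itga7* had −0.02, −0.04 and −0.043 (range over libraries left out −0.043 to 0.074). *Lamb2* had −0.084 and −0.02 without control-tagged replicates 2 and 4 and −0.01 and −0.06 without TK-/- tagged replicates 1 and 3 (range −0.084 to 0.117). *Dag1* had −0.0056 with total counts and −0.0055, −0.034 and −0.0082 without control-tagged replicates 2 and 3 and TK-/- tagged replicate 2 (range −0.034 to 0.076). Per longest transcript, the class shares of *Itga7*, *Lama5* and *Lamb2* were 41.3%, 41.9% and 78.9%, and per coding length those of *Lama5* and *Lamb2* were 40.7% and 77.9%, against 31.5%, 56.9% and 85.3% per exon length, because the lengths differ. With total counts, the r of *Itga7* with cardiomyocyte markers was −0.056 and that of *Itga6* with endothelial markers 0.836 (exact permutation test, adjusted p = 0.0355), and the cause was not tested. That scaling gave *Itga11* an r of 0.749 with fibroblast markers. Without the 2 libraries farthest from the median, here control-tagged replicate 2 and TK-/- tagged replicate 3, it was 0.842. Removing group means from the relations was chosen after seeing the data. Depth limits the genes under 1 RPKM, 9 of the 37.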
